A study of Rattus norvegicus with 13 samples.

Results

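The genes described here are 45 components of Toll-like receptor, interleukin-1 receptor kinase and NF-κB signalling, chosen by gene symbol from a list of receptors, adaptors, kinases, NF-κB subunits and inhibitors. The choice was made with earlier results of these data known, so their shares set beside those of all genes below are a description only. A gene was measured where at least 1 probe set (a group of short oligonucleotides on the array that reports 1 transcript) was annotated to that gene and to no other. By this rule 41 of the 45 genes were measured, by 58 probe sets, out of 14217 genes and 31042 probe sets on the array. No such probe set was found in the annotation used here for Tlr3, Ikbkg, Rel and Nfkbie, which are not analysed further. The cells were chondrocytes from the femoral head cartilage of male Wistar rats 2 months old, grown to their second passage, combined into 1 pool and seeded into separate flasks. The 4 treatments were compared on Affymetrix Rat Genome arrays, 1 array per flask. Cultures with both agents received 20 mM glucosamine (an amino sugar, given as the hydrochloride) and, 6 h later, 10 ng/ml of the inflammatory cytokine IL-1β for another 14 h (GlcN+IL-1β, 4 arrays). The others received IL-1β at the same dose for 14 h (IL-1β, 4 arrays), glucosamine for 20 h (GlcN, 2 arrays) or neither agent (untreated, 3 arrays). All groups share the same pooled cells, so the p-values below rest on how far flasks of the same cells differed and not on how far animals did, and passaged chondrocytes in a flask lack the matrix that surrounds them in cartilage. Because RNA was taken from whole cultures, fewer cells of a type and less RNA per cell cannot be told apart.

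Toll-like receptors and the IL-1 receptor share a cytoplasmic domain and signal through the adaptor MyD88 and kinases of the IRAK family to TRAF ubiquitin ligases. These activate the kinase TAK1 (Map3k7) with its binding partners and then the IκB kinase complex, which marks IκB proteins for destruction and so frees NF-κB dimers to enter the nucleus. Many genes that NF-κB switches on encode its own inhibitors and subunits, and in cartilage the pathway is known for inducing matrix proteinases and inflammatory mediators.

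Values are array signals on a linear scale that is arbitrary between probe sets and can fall below 0 for a dim probe set, so a signal was compared between groups and not between genes. For fold changes, signals below 5.71 (the 25th percentile of all values, here called the floor) were set to it. The arrays of replicate d in both groups with IL-1β stood apart from the rest. Their median signals were 38.7 (GlcN+IL-1β) and 37.9 (IL-1β), against 20.8 to 24.6 on the other 11 arrays, and the 13 calls on the genes described that change without both arrays are given in the closing section. Markers fixed for chondrocytes (9 of 11 measured) summed to signals of 6020 to 7160 in GlcN+IL-1β, 5442 to 6596 in IL-1β, 7623 to 7952 in GlcN and 9899 to 11154 in untreated cultures. Col2a1, the cartilage collagen, has 3 probe sets. The brightest gave 2578 to 3074 in GlcN+IL-1β, 2422 to 3139 in IL-1β, 2973 to 3173 in GlcN and 3473 to 4165 in untreated cultures, and a dimmer one gave 11.9 to 33.1 in GlcN+IL-1β, 2.09 to 5.42 in IL-1β, 34.4 to 49.5 in GlcN and 93.6 to 114 in untreated cultures. On all 3, every treated array lay below every untreated one. Markers of macrophages and monocytes (14 of 15 measured) summed to 164 to 424 in GlcN+IL-1β, 318 to 561 in IL-1β, 122 to 132 in GlcN and 102 to 113 in untreated cultures. Of these markers Cd68 and Itgb2 were called higher with IL-1β over untreated cultures (14.3%, beside 15.5% of all genes) and the other 12 were not called. In GlcN+IL-1β against GlcN, 0 of the 14 were called. The leukocyte antigen Ptprc stayed between -9.02 and 10.8 on every array. Under the floor on all arrays of a group were 8 of the 14 in untreated cultures, 10 in GlcN and 1 in each group with IL-1β. Both groups with IL-1β hold a replicate d array, and the part of these arrays in the sums was not tested. With IL-1β over untreated cultures, 7 of 8 chondrocyte markers tested were lower, 2 of 5 endothelial markers were higher, and of 6 fibroblast and synovial lining markers 2 were higher and 2 lower. The part of other cell types in the results below was not tested.

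IL-1β moved most of the measured components upward. Over untreated cultures, 28 of the 41 genes were higher at a limma adjusted p under 0.05 and 2 were lower, with a median log2 change of 1.198. Across all 13748 genes tested, 15.5% were higher and 15.3% lower, with a median of 0.09. When glucosamine was present (GlcN+IL-1β against GlcN), 12 of the 41 were higher and 1 was lower, with a median log2 change of 0.28, where 1.45% of all genes were higher and 1.13% lower, with a median of 0.03. The direct test of the difference between these responses (the interaction) was passed by 22 of the 41 genes, 21 of them with a smaller rise in the presence of glucosamine, against 6.68% of all genes on that side and 5.11% on the other. The GlcN group has 2 arrays, and the count of 13 genes called in its presence was 8 when only the groups compared entered the fit.

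The size of what was left differed widely between genes. Expressed as the log2 response with glucosamine over the log2 response without it, the 28 genes that rose with IL-1β kept a median of 29.8%, beside 17.2% over the 2137 genes of the whole array that rose. Bcl3, Tlr2, Zc3h12a, Nfkbiz and Nfkbia kept over 70% and Ripk2, Irak2, Nfkb2, Birc2, Ikbkb, Tnip2 and Chuk under 20%. These responses start from different baselines: glucosamine alone lowered Bcl3, Tlr2, Zc3h12a and Nfkbia and raised Nfkbiz, Irak2, Nfkb2, Ikbkb and Chuk. In linear mean signal, the part of the rise over untreated missing in GlcN+IL-1β cultures ranked them otherwise. It was 15.5% for Bcl3, 53.2% for Tlr2, 69.4% for Zc3h12a, 35.1% for Nfkbiz and 72.3% for Nfkbia. For Ripk2, Irak2, Nfkb2, Birc2, Ikbkb, Tnip2 and Chuk it was 94.3%, 84.2%, 81.7%, 106%, 18.9%, 61.0% and -13.6%. The share of Cd40 is set by the floor and is not read here; its log2 response with a floor at the 10th percentile was 2.74 with glucosamine and 5.35 without it, and without Cd40 the median over the other 27 genes was 30.2%. Grouped by role, the median share kept was 34.0% over the 9 IκB proteins and feedback inhibitors that rose (17.6% to 142%). It was 29.7% over the 4 subunits (12.7% to 51.3%) and 29.8% over 8 receptors and adaptors without Cd40 (3.93% to 90.2%). Over the 5 kinases it was 12.3% (-35.7% to 50.2%), with Chuk, whose rise was lost in 16 of 25 alternative settings, as the lowest. The ranges of the roles overlap, and a difference between roles was not tested.

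**Figure D1:**
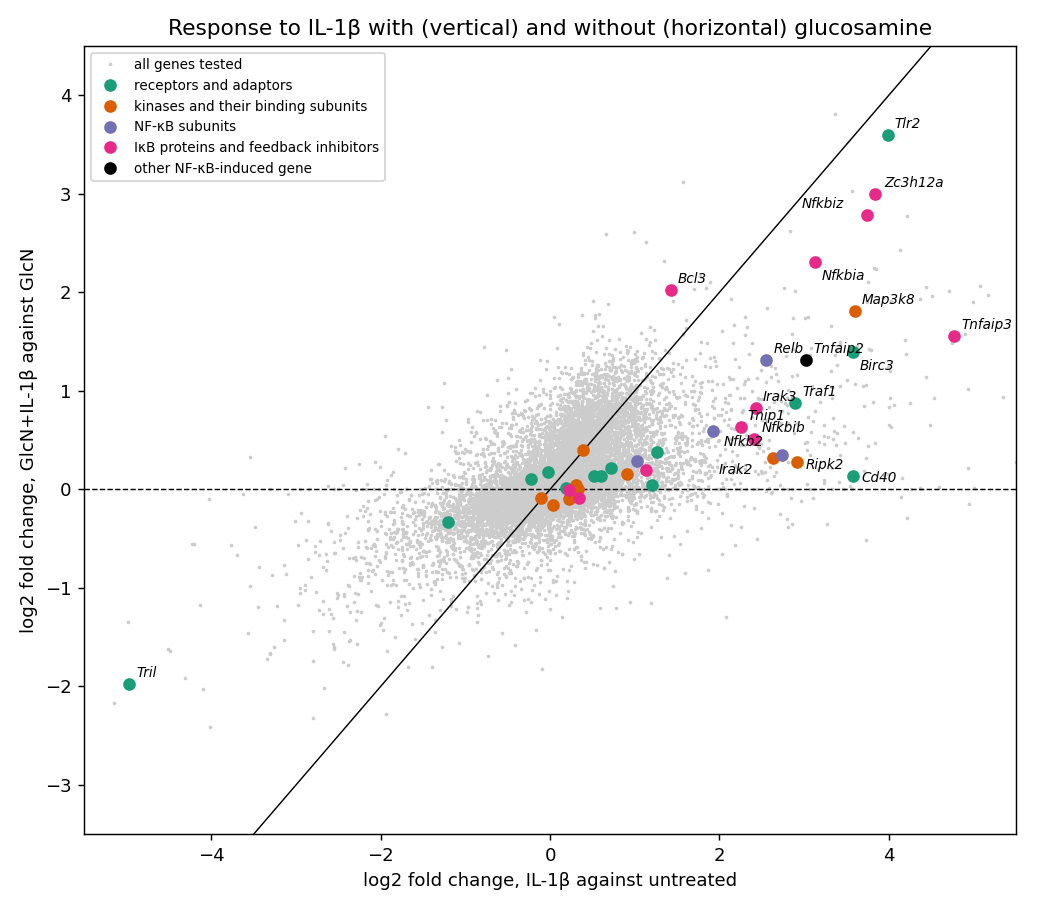
Log2 fold change in GlcN+IL-1β against GlcN cultures (vertical axis) and in IL-1β against untreated cultures (horizontal axis), for all 13748 genes tested (grey) and the 41 measured pathway genes, coloured by role. Genes on the diagonal responded alike in both settings, and genes on the dashed line did not respond with glucosamine. Tlr2, Zc3h12a, Nfkbiz and Nfkbia lie below the diagonal but closer to it than to the dashed line. Of these all but Tlr2 had a called smaller response with glucosamine. Bcl3 lies above the diagonal, and Ripk2, Irak2 and Nfkb2 lie near the dashed line, as does Cd40, whose place there is set by the floor.

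The bases before the annotated start were examined because the genes moved together with IL-1β and parted with glucosamine. RefSeq promoters (build GRCr8) were at hand for 35 of the 45 genes, and the 250 bases before the start were searched on both strands for the κB consensus of 10 bases, counted once per promoter. At least 1 match was present in 11 of these 35 (31.4%), beside 6.33% of all 33469 promoters searched the same way. Of the genes that rose with IL-1β and have a promoter sequence, 6 of the 10 that also rose in the presence of glucosamine held a match (Tlr2, Nfkbia, Nfkbiz, Bcl3, Tnip1 and Irak3), as did 3 of the 11 that were not called in its presence (Nfkb2, Tnfaip3 and Traf3), and none of the 10 measured genes that did not rise. This split follows calls that rest on 2 GlcN arrays and differs from a split by the share kept. Tnip1, among the 10, kept 28.0%, and Tnfaip3, among the 11, kept 32.5%. The matches are letters in a window, given as a description with no test. The stretches below end at the base before the start, run 5′ to 3′ on the gene's strand, and have the κB matches of either strand in capitals. Tlr2, Nfkbia, Nfkbiz and Bcl3 are shown for the genes that kept most of their response, and Nfkb2, Tnfaip3 and Tnip1 for those that kept 32.5% of it or less.
Tlr2 (chr2:171504558-171504807, minus strand): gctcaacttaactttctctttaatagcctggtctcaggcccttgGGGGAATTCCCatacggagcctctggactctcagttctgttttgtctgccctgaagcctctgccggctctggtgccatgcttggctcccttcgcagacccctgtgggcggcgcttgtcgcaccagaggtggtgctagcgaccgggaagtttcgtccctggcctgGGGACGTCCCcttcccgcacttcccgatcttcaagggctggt
Nfkbia (chr6:78597073-78597172, minus strand): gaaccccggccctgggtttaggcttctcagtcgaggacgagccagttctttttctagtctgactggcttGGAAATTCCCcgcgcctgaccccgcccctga
Nfkbiz (chr11:58251621-58251720, plus strand): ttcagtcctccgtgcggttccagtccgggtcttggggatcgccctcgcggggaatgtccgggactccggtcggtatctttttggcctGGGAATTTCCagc
Bcl3 (chr1:88613556-88613655, minus strand): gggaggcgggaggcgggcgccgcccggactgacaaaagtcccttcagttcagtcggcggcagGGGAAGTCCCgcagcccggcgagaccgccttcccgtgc
Nfkb2 (chr1:255108274-255108373, plus strand): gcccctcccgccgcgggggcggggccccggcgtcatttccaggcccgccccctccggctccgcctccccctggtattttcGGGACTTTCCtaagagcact
Tnfaip3 (chr1:15543980-15544079, minus strand): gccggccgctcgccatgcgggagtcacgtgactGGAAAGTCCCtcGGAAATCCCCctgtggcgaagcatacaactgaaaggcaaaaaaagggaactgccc
Tnip1 (chr10:39584962-39585061, minus strand): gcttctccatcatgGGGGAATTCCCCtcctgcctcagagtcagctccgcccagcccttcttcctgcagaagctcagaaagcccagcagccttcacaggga
Tnfaip3 has matches on the opposite strand 67 to 58 and 55 to 46 bases before its start and a further match, on both strands, 170 to 161 bases before it and outside the stretch shown, and Tnip1 has overlapping matches on both strands between 86 and 75 bases before its start. The match of Nfkb2 lies 20 to 11 bases before the start and that of Nfkbiz 13 to 4 bases before it, so a match near the start was present in a gene that kept 12.7% of its response and in a gene that kept 74.4%.

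Among receptors and adaptors, Tlr2 and Cd40 rose steeply with IL-1β and differed in what glucosamine left of the rise, while Tril fell. Of the 14 measured genes of this group, 9 were higher and 2 lower with IL-1β over untreated cultures, and 2 were higher and 1 lower in the presence of glucosamine. Tlr2, the receptor for bacterial lipoproteins, gave signals of 786, 846, 816 and 918 in GlcN+IL-1β cultures, 1626, 1551, 1566 and 1971 in IL-1β cultures, 80.9 and 59.9 in GlcN cultures, and 105, 106 and 106 in untreated cultures. No value of 1 group fell within the range of another. Its response was 12.1-fold with glucosamine (log2 3.59 ± 0.12 SE, limma adjusted p = 7.2e-08) and 15.8-fold without it (log2 3.98 ± 0.11, adjusted p = 4.2e-10). The difference between the responses was -0.39 ± 0.16 on the log2 scale (adjusted p = 0.22), with an adjusted p of 0.048 without GlcN replicate b, the lower of the GlcN arrays. Glucosamine lowered Tlr2 in the absence of the cytokine (log2 -0.60 ± 0.13, adjusted p = 0.0078) and in its presence (log2 -0.99 ± 0.10, adjusted p = 2.0e-05).

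Cd40, a receptor of the TNF receptor family that signals through TRAFs to NF-κB, was seen almost only in cultures with IL-1β alone. The signals were 8.22, 4.65, 5.11 and 3.87 in GlcN+IL-1β cultures, 63.9, 68.0, 72.9 and 67.7 in IL-1β cultures, -0.895 and 0.193 in GlcN cultures, and 1.69, 2.22 and 1.23 in untreated cultures. Only 1 GlcN+IL-1β array rose above the floor, and all arrays without IL-1β were below it. IL-1β cultures were therefore at least 11.9-fold above untreated cultures (adjusted p = 1.3e-07) and at least 10.9-fold above GlcN+IL-1β cultures (adjusted p = 1.6e-07). In the presence of glucosamine the response had an adjusted p of 0.86, and with a floor at the 10th percentile it was called (adjusted p = 0.017). The raw values of the GlcN+IL-1β arrays all lay above those of the GlcN arrays.

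Tril, an accessory protein that takes part in signalling by Tlr4 and Tlr3, was the gene with the steepest fall. Its signals were 3.20, 2.47, 1.32 and 8.14 in GlcN+IL-1β cultures, -0.0715, 4.05, 1.44 and 1.82 in IL-1β cultures, 19.7 and 30.8 in GlcN cultures, and 189, 174 and 176 in untreated cultures. Either agent alone gave values far below the untreated range, and 7 of the 8 arrays with IL-1β were under the floor. IL-1β cultures were at least 31.4-fold below untreated cultures (adjusted p = 3.0e-08) and GlcN cultures 7.30-fold below them (adjusted p = 3.4e-05). GlcN+IL-1β cultures were at least 3.94-fold below GlcN cultures (adjusted p = 0.0021, and 0.058 without GlcN replicate b). Its interaction, log2 3.00 ± 0.36, was the 1 call on the positive side, and its size is set by the floor that both groups with IL-1β reached.

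Among the adaptors of the TRAF and inhibitor-of-apoptosis families, Birc2, Birc3 and Traf1 rose with IL-1β and passed the test for a smaller response with glucosamine. Traf2 and Traf3 rose without a called interaction, Traf5 fell and Traf6 (log2 0.19) was not called. Several members of these families assemble ubiquitin chains at the receptor. Birc3 gave 95.8, 86.7, 105 and 118 in GlcN+IL-1β cultures, 292, 327, 301 and 382 in IL-1β cultures, 41.2 and 35.8 in GlcN cultures, and 28.4, 24.3 and 29.3 in untreated cultures. The groups did not overlap, and the response was 2.62-fold with glucosamine (adjusted p = 0.00042) and 11.9-fold without it (adjusted p = 4.0e-09), an interaction of -2.18 ± 0.20 (adjusted p = 3.0e-05). Traf1 gave 39.99, 52.3, 56.9 and 85.7 in GlcN+IL-1β cultures, 150.4, 176, 214 and 239 in IL-1β cultures, 30.3 and 31.4 in GlcN cultures, and 24.7, 25.3 and 27.5 in untreated cultures. The GlcN+IL-1β arrays all lay above those without IL-1β, but the 1.83-fold response did not pass the test (adjusted p = 0.19), while the response without glucosamine was 7.44-fold (adjusted p = 2.2e-06). Traf2 gave 50.9, 51.5, 52.1 and 27.5 in GlcN+IL-1β cultures, 51.4, 83.9, 84.3 and 92.0 in IL-1β cultures, 29.0 and 39.3 in GlcN cultures, and 33.1, 29.0 and 32.8 in untreated cultures. Replicate d of the GlcN+IL-1β group lay below the untreated values, and the difference between GlcN+IL-1β and IL-1β cultures (log2 -0.79 ± 0.25, adjusted p = 0.038) was lost in 13 of 26 alternative settings, 2 of them without that array. Traf5 gave 10.7, 12.8, 15.02 and 13.3 in GlcN+IL-1β cultures, 15.4, 15.04, 18.1 and 4.57 in IL-1β cultures, 18.3 and 14.3 in GlcN cultures, and 29.5, 28.9 and 28.0 in untreated cultures. All treated arrays lay below the untreated ones, and the 2.31-fold fall with IL-1β (adjusted p = 0.031) was lost in 7 of 25 alternative settings. The rises of Birc2, Traf3, Cd14 and Ly96 were between 1.43-fold and 2.29-fold without glucosamine, and none was called in its presence.

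Some kinases were called higher with IL-1β and the others were not called. The smallest called rise, that of Chuk, lay within the range of the changes not called. Of the 11 measured, 5 rose over untreated cultures and none fell, and Map3k8 alone rose in the presence of glucosamine. Map3k8, which activates the ERK pathway once released from the p105 NF-κB precursor, gave 145, 150.3, 157 and 224 in GlcN+IL-1β cultures, 521, 605, 452 and 833 in IL-1β cultures, 51.2 and 44.4 in GlcN cultures, and 50.5, 41.5 and 54.3 in untreated cultures. Both groups with IL-1β stood apart from both groups without it and from each other. Its response was 3.497-fold with glucosamine (log2 1.81 ± 0.23, adjusted p = 0.0016) and 12.1-fold without it (log2 3.60 ± 0.21, adjusted p = 1.3e-07).

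Ripk2 kept 9.69% and Irak2 12.3% of the response when glucosamine was present. Ripk2, the kinase that links NOD receptors to NF-κB, gave 122, 139, 159 and 113 in GlcN+IL-1β cultures, 700.4, 813, 737 and 679.8 in IL-1β cultures, 124 and 95.6 in GlcN cultures, and 96.4, 98.5 and 95.9 in untreated cultures. The GlcN+IL-1β arrays overlapped the GlcN arrays. Its response was 1.22-fold with glucosamine (adjusted p = 0.71) and 7.54-fold without it (adjusted p = 9.8e-09), an interaction of -2.63 ± 0.18 (adjusted p = 4.6e-06). Irak2, the IRAK family member that sustains signalling from the receptor complex, gave 88.1, 93.1, 86.2 and 85.0 in GlcN+IL-1β cultures, 285, 346, 259 and 311 in IL-1β cultures, 75.9 and 65.4 in GlcN cultures, and 52.2, 45.0 and 47.9 in untreated cultures. Here the GlcN arrays already lay above the untreated ones (log2 0.54 ± 0.12, adjusted p = 0.011, and 0.13 without GlcN replicate a), and the response was 1.25-fold with glucosamine (adjusted p = 0.39) and 6.18-fold without it (adjusted p = 6.9e-09).

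Of the catalytic subunits of the IκB kinase complex, Ikbkb rose with IL-1β and Chuk moved little. Ikbkb gave 161, 159, 182 and 149 in GlcN+IL-1β cultures, 137, 182, 204 and 192 in IL-1β cultures, 136 and 158 in GlcN cultures, and 109, 81.7 and 93.5 in untreated cultures. All 3 treated groups lay above the untreated arrays and overlapped each other, with a 1.88-fold response to IL-1β alone (adjusted p = 0.00053) and a 1.55-fold rise with glucosamine alone (adjusted p = 0.027, not called without either GlcN array). Chuk gave 251, 285, 248 and 275 in GlcN+IL-1β cultures, 237, 247, 262 and 292 in IL-1β cultures, 283 and 277 in GlcN cultures, and 222, 218 and 222 in untreated cultures. Its 1.17-fold rise with IL-1β (adjusted p = 0.044) was lost in 16 of 25 alternative settings. The other 6 kinases and binding subunits, Irak1, Irak4, Ripk1, Map3k7, Tab1 and Tab2, ran from 0.930-fold to 1.304-fold with IL-1β over untreated cultures, none called. Tab1 and Tab2 were called higher without both replicate d arrays (adjusted p = 0.032 and 0.0013) and with the replicate letter as a block (adjusted p = 0.018 and 0.0032). Irak4 was under the floor on all arrays except the replicate d arrays of the groups with IL-1β (17.2 in GlcN+IL-1β and 16.5 in IL-1β), which are those that stood apart on the whole array.

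**Figure D2:**
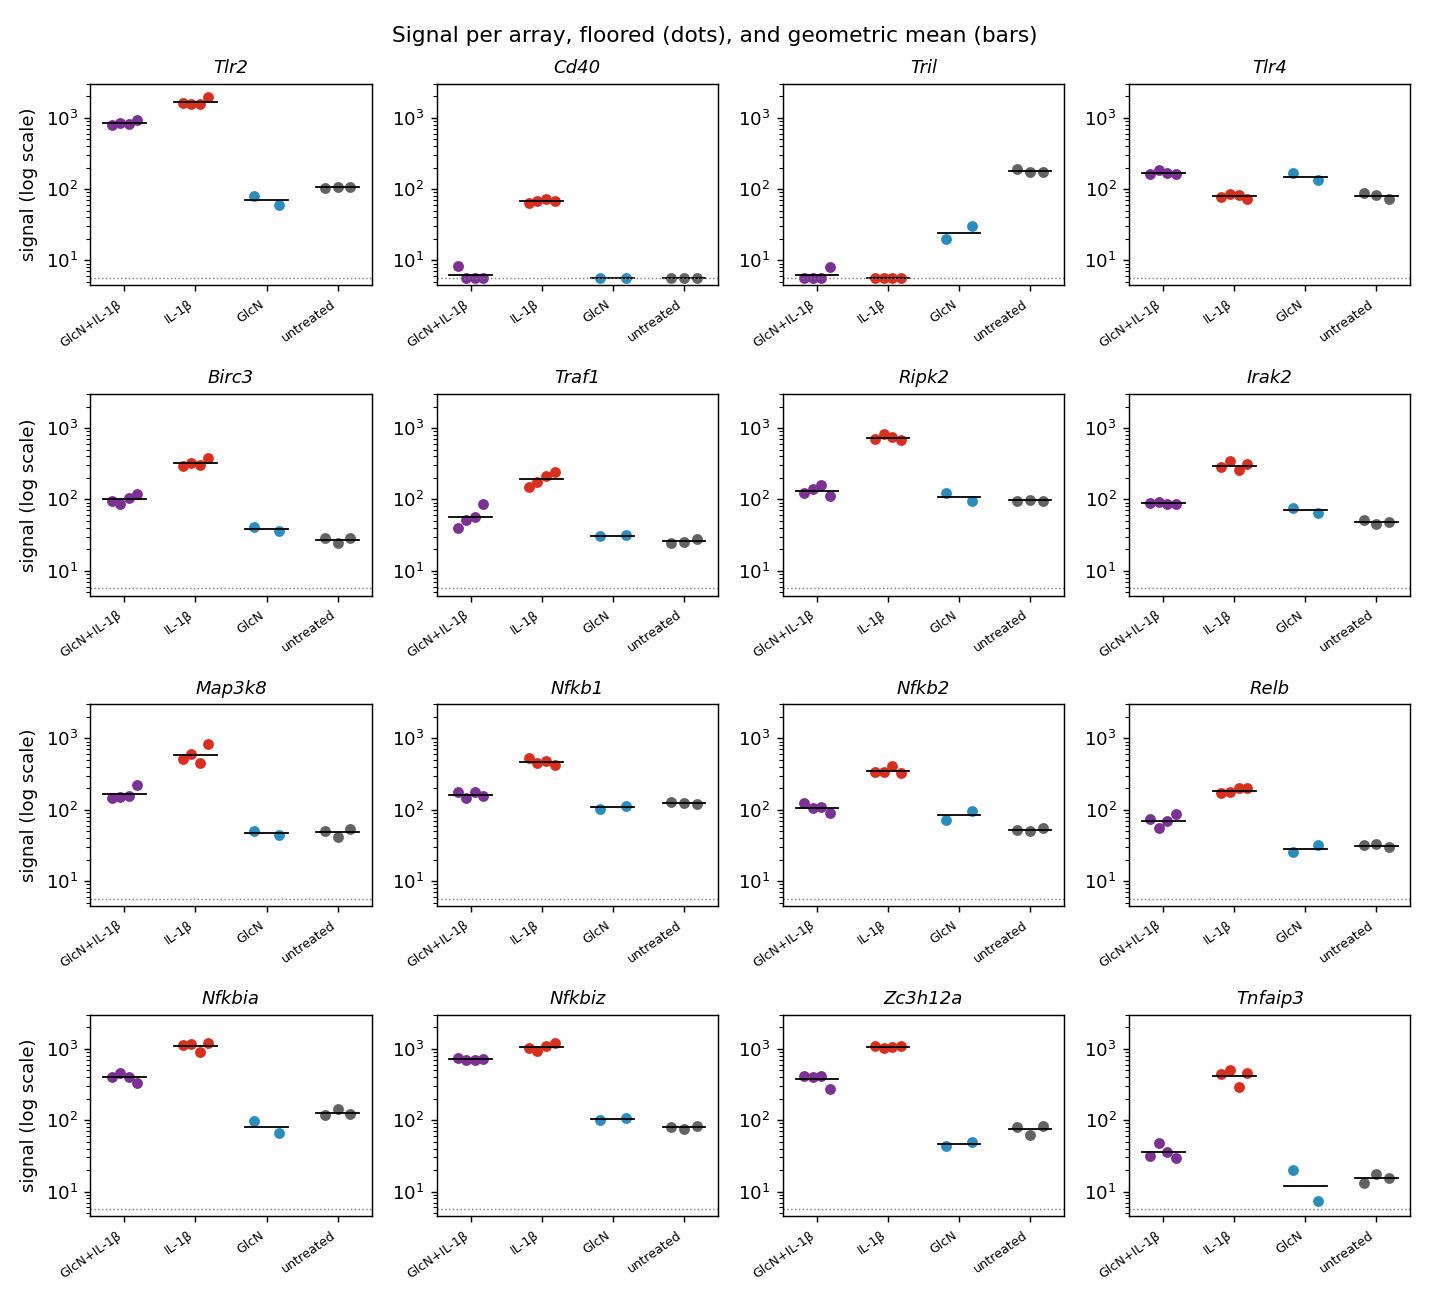
Signal of 16 genes on each of the 13 arrays (dots, values below the floor drawn at it) with the geometric mean of each group (bars), on a log axis, in GlcN+IL-1β, IL-1β, GlcN and untreated cultures. The dotted line is the floor of 5.71. Tlr2, Nfkbia, Nfkbiz and Zc3h12a stayed well above the cultures without IL-1β when glucosamine was present, whereas Ripk2, Irak2 and Cd40 lay near them.

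All 4 measured NF-κB subunits rose with IL-1β, and all 4 passed the test for a smaller response with glucosamine. Nfkb2, whose product is processed into the DNA-binding subunit of the alternative pathway, gave 123, 107, 109 and 90.3 in GlcN+IL-1β cultures, 337, 335, 410.0 and 324 in IL-1β cultures, 72.1 and 97.3 in GlcN cultures, and 51.6, 51.3 and 54.9 in untreated cultures. The GlcN+IL-1β arrays overlapped the GlcN arrays, which in turn lay above the untreated ones. The response was 1.27-fold with glucosamine (adjusted p = 0.55) and 6.66-fold without it (adjusted p = 2.8e-08). Relb, the transactivating partner of that subunit, gave 73.6, 55.7, 69.8 and 87.2 in GlcN+IL-1β cultures, 170.0, 175, 199.5 and 200.1 in IL-1β cultures, 25.2 and 32.2 in GlcN cultures, and 31.6, 33.0 and 30.3 in untreated cultures. Unlike Nfkb2, it stayed above the cultures without IL-1β, with a 2.48-fold response in the presence of glucosamine (adjusted p = 0.0017, and 0.11 when only the groups compared were fitted) and a 5.88-fold response in its absence (adjusted p = 1.6e-07).

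Nfkb1, whose product yields the DNA-binding subunit of the classical dimer, gave 176, 144, 178 and 156 in GlcN+IL-1β cultures, 527, 457, 479.8 and 422 in IL-1β cultures, 102 and 114 in GlcN cultures, and 128, 123 and 121 in untreated cultures. No group with IL-1β overlapped one without it. Its response was 1.51-fold with glucosamine (adjusted p = 0.012, not called without either GlcN array) and 3.78-fold without it (adjusted p = 3.6e-08). Rela, the transactivating subunit of the classical dimer, gave 287, 236, 277 and 198 in GlcN+IL-1β cultures, 264, 252, 311 and 265 in IL-1β cultures, 178 and 229 in GlcN cultures, and 141, 127 and 134 in untreated cultures. The groups with IL-1β overlapped each other, and GlcN cultures lay above untreated ones. Its response of 1.22-fold with glucosamine (adjusted p = 0.77) and 2.03-fold without it (adjusted p = 0.00012) gave an interaction of -0.73 ± 0.20 (adjusted p = 0.045), which was lost in 12 of 23 alternative settings.

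The IκB proteins and feedback inhibitors held the gene with the largest rise, Tnfaip3, and 6 of the 11 measured still rose when glucosamine was present. Over untreated cultures 9 of them rose and none fell, with a median log2 change of 2.41, and in the presence of glucosamine the median was 0.83. Nfkbia, which holds NF-κB in the cytoplasm and is itself an NF-κB target, gave 402, 459, 401 and 334 in GlcN+IL-1β cultures, 1125, 1169.7, 914 and 1225 in IL-1β cultures, 96.7 and 66.7 in GlcN cultures, and 117, 143 and 120.3 in untreated cultures. No groups overlapped. The response was 4.94-fold with glucosamine (log2 2.30 ± 0.17, adjusted p = 2.4e-05) and 8.71-fold without it (log2 3.12 ± 0.15, adjusted p = 3.1e-08), and the interaction (adjusted p = 0.045) was lost in 14 of 23 alternative settings.

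Nfkbiz kept 74.4% and Zc3h12a 78.0% of the response. Nfkbiz, a nuclear IκB protein that NF-κB needs for a set of secondary response genes, gave 753, 695, 704 and 723 in GlcN+IL-1β cultures, 1011, 931, 1111 and 1202 in IL-1β cultures, 99.8 and 109 in GlcN cultures, and 79.7, 75.8 and 82.4 in untreated cultures. Its response was 6.89-fold with glucosamine (adjusted p = 7.2e-08) and 13.4-fold without it (adjusted p = 8.5e-11). Zc3h12a, a ribonuclease that degrades inflammatory transcripts, gave 416, 400.4, 419.8 and 277 in GlcN+IL-1β cultures, 1083, 1023, 1054 and 1102 in IL-1β cultures, 43.9 and 50.05 in GlcN cultures, and 81.5, 61.5 and 82.4 in untreated cultures. For both genes the 4 groups were fully separate. The response of Zc3h12a was 7.96-fold with glucosamine (adjusted p = 2.4e-06) and 14.3-fold without it (adjusted p = 5.2e-09), and the interactions were -0.96 ± 0.12 for Nfkbiz (adjusted p = 0.00038) and -0.84 ± 0.22 for Zc3h12a (adjusted p = 0.036, lost in 11 of 23 alternative settings).

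Tnfaip3 had the largest rise with IL-1β of the 41 genes and kept 32.5% of it, a share that rests on 2 GlcN arrays that differed (19.9 and 7.32). This gene encodes the ubiquitin-editing enzyme that shuts off signalling to NF-κB. It gave 31.2, 47.4, 36.3 and 29.1 in GlcN+IL-1β cultures, 444, 508, 289 and 459.6 in IL-1β cultures, 19.9 and 7.32 in GlcN cultures, and 13.1, 17.5 and 15.5 in untreated cultures. All GlcN+IL-1β arrays lay above those without IL-1β and all lay below the lowest IL-1β array. Its response was 2.93-fold with glucosamine (log2 1.55 ± 0.36, adjusted p = 0.062, with log2 2.27 and an adjusted p of 0.010 without GlcN replicate a, and log2 0.83 and 0.76 without GlcN replicate b) and 27.3-fold without it (log2 4.77 ± 0.32, adjusted p = 5.0e-07), an interaction of -3.22 ± 0.48 (adjusted p = 0.0013).

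Irak3, a kinase-dead member of the IRAK family that restrains the receptor complex, gave 239.5, 243, 243 and 179 in GlcN+IL-1β cultures, 972, 852, 893 and 769 in IL-1β cultures, 128 and 126 in GlcN cultures, and 166, 161 and 158 in untreated cultures. Groups did not overlap, and the response was 1.77-fold with glucosamine (adjusted p = 0.0041, not called without either GlcN array) and 5.38-fold without it (adjusted p = 1.9e-08). Nfkbib, a second cytoplasmic IκB protein, gave 159.7, 143, 156 and 98.4 in GlcN+IL-1β cultures, 329, 273, 348 and 243 in IL-1β cultures, 88.9 and 104 in GlcN cultures, and 53.2, 60.9 and 52.8 in untreated cultures. Replicate d of the GlcN+IL-1β group lay within the GlcN values. The response of Nfkbib was 1.42-fold with glucosamine (adjusted p = 0.46, and 0.014 without both replicate d arrays) and 5.31-fold without it (adjusted p = 9.6e-07).

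Bcl3 was the gene that kept the most, and its array values are given for that reason, after they were seen. This nuclear IκB protein gave 94.8, 80.8, 82.3 and 92.1 in GlcN+IL-1β cultures, 84.0, 80.2, 108 and 116 in IL-1β cultures, 17.6 and 26.2 in GlcN cultures, and 41.1, 32.2 and 34.1 in untreated cultures. The groups with IL-1β overlapped, while the GlcN arrays lay below the untreated ones. Its response was 4.07-fold with glucosamine (adjusted p = 0.00028) and 2.69-fold without it (adjusted p = 9.0e-05), and the interaction was 0.60 ± 0.27 (adjusted p = 0.28). The fall with glucosamine alone was lost in 11 of 25 alternative settings (adjusted p = 0.38 without GlcN replicate a). Tnip1, a ubiquitin-binding partner of the Tnfaip3 product, rose 1.55-fold with glucosamine (adjusted p = 0.00045) and 4.76-fold without it (adjusted p = 3.7e-10). Tnip2 rose 2.19-fold with IL-1β alone and was not called with glucosamine, and the deubiquitinase Cyld and the adaptor inhibitor Tollip were called in neither setting. With IL-1β over untreated cultures, Tollip was called higher without both replicate d arrays (adjusted p = 0.020) and Cyld without IL-1β replicate a (adjusted p = 0.0034).

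Tnfaip2, listed apart because it is induced by NF-κB and is no part of the cascade, gave 44.6, 29.7, 50.3 and 52.4 in GlcN+IL-1β cultures, 296, 281, 367 and 337 in IL-1β cultures, 17.02 and 17.8 in GlcN cultures, and 41.6, 39.0 and 37.0 in untreated cultures. The GlcN+IL-1β arrays lay around the untreated values and above the GlcN values. The response was 2.48-fold with glucosamine (adjusted p = 0.0055, not called without either GlcN array) and 8.14-fold without it (adjusted p = 2.0e-07).

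**Figure D3:**
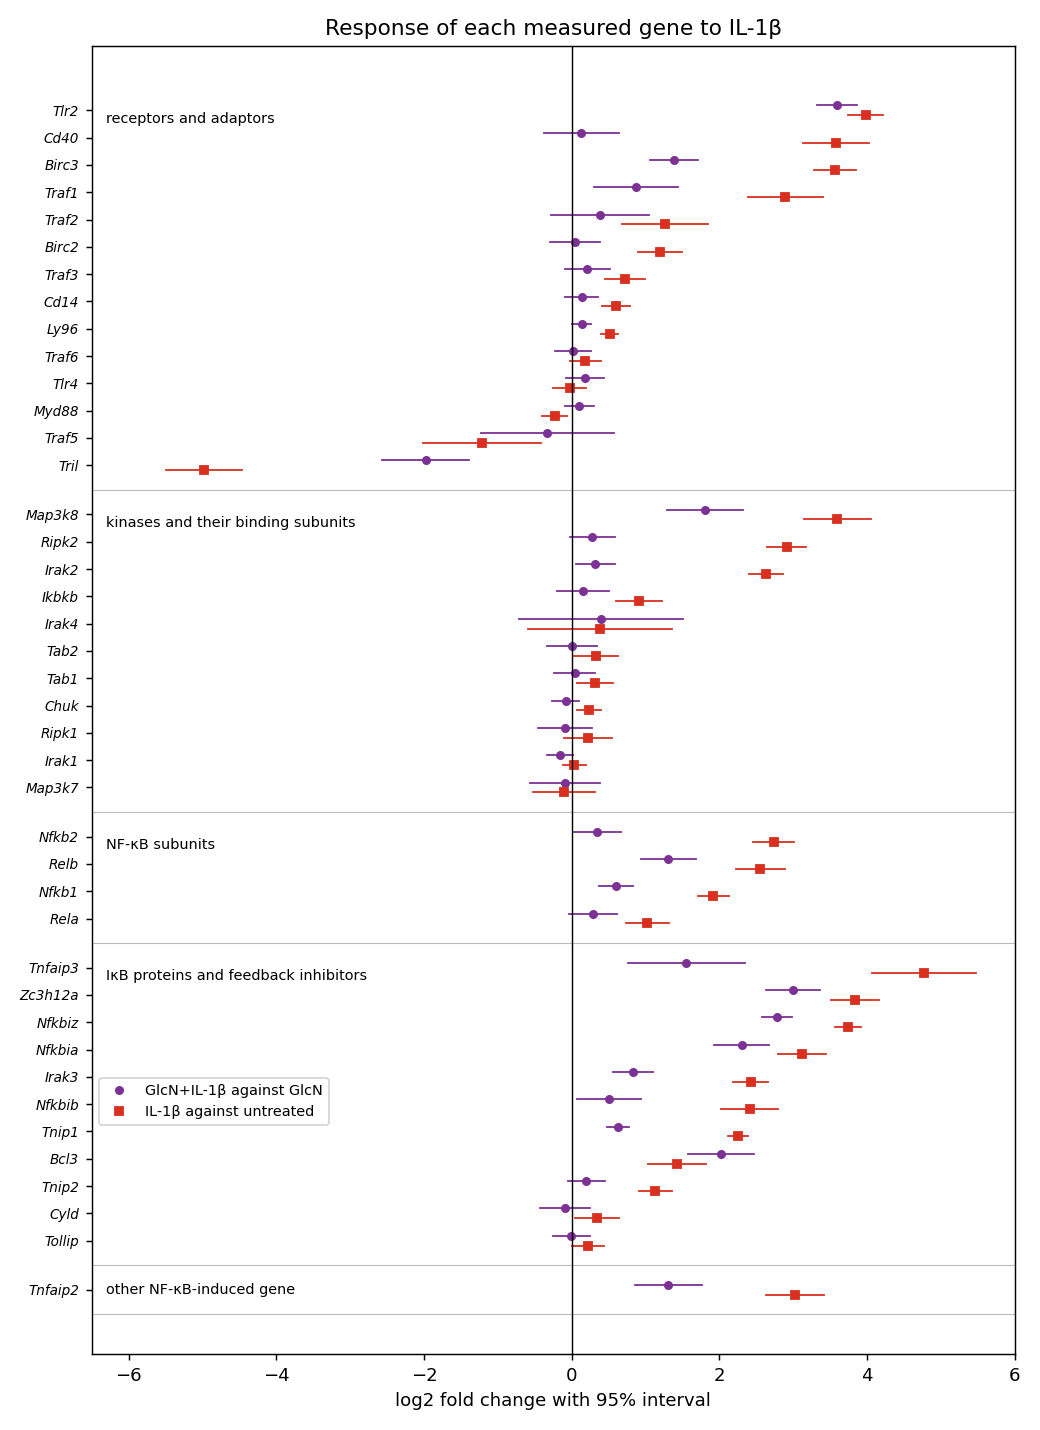
Log2 fold change with its 95% interval from the 4-group limma fit, for each of the 41 measured genes by role, in the presence of glucosamine (circles, GlcN+IL-1β against GlcN) and in its absence (squares, IL-1β against untreated). The intervals do not overlap for Tnfaip3, Cd40, Ripk2, Irak2 and Nfkb2, and they do for Tlr2, Bcl3 and the genes near 0.

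Glucosamine without the cytokine also moved some of these genes away from their untreated level. Over untreated cultures 11 of the 41 genes were higher and 7 lower, where 10.4% of all genes were higher and 9.37% lower. The higher genes were Tlr4, Ly96, Irak1, Irak2, Ikbkb, Chuk, Nfkb2, Rela, Nfkbib, Nfkbiz and Tollip, from 1.27-fold to 1.84-fold. The lower ones were Tril, Tnfaip2, Bcl3, Zc3h12a, Nfkbia, Tlr2 and Tnip1, from 7.30-fold to 1.40-fold lower. With 2 GlcN arrays this count depended on single arrays: it was 8 without GlcN replicate b, 11 without GlcN replicate a and 10 without untreated replicate c.

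Tlr4 and Irak1 moved with glucosamine and not with IL-1β, and their array values are given for that reason, after they were seen. Tlr4, the receptor for bacterial lipopolysaccharide, gave 160.5, 183, 167 and 163 in GlcN+IL-1β cultures, 76.9, 85.5, 83.7 and 72.4 in IL-1β cultures, 168 and 132 in GlcN cultures, and 86.8, 83.3 and 73.2 in untreated cultures. Irak1, the kinase that MyD88 recruits, gave 808, 762, 752 and 642 in GlcN+IL-1β cultures, 498, 494, 530.4 and 500.1 in IL-1β cultures, 795 and 851 in GlcN cultures, and 506, 488 and 484 in untreated cultures. For both genes every array with glucosamine lay above every array without it. With IL-1β present, glucosamine raised Tlr4 2.12-fold (adjusted p = 7.1e-06) and Irak1 1.46-fold (adjusted p = 8.5e-05), and without it 1.84-fold (adjusted p = 0.00048) and 1.67-fold (adjusted p = 0.00011). The response of Tlr4 to IL-1β itself was 1.13-fold with glucosamine (adjusted p = 0.82) and 0.982-fold without it (adjusted p = 0.89).

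Set directly against IL-1β cultures, GlcN+IL-1β cultures had 3 of the 41 genes higher (Tlr4, Irak1 and Myd88) and 23 lower, with a median log2 change of -0.56, where 15.8% of all genes were higher and 14.8% lower, with a median of 0.03. By role the lower genes were 8 of 14 receptors and adaptors, 3 of 11 kinases, 3 of 4 subunits, 8 of 11 IκB proteins and feedback inhibitors, and Tnfaip2. The steepest were Tnfaip3 at 11.8-fold lower (adjusted p = 4.3e-06), Cd40 as above, Tnfaip2 at 7.37-fold lower (adjusted p = 2.4e-07) and Ripk2 at 5.53-fold lower (adjusted p = 3.8e-08). Rela, Bcl3, Ikbkb, Chuk and Ly96 rose with IL-1β but had no called difference between these groups. The adaptor Myd88 was 1.22-fold higher (adjusted p = 0.011).

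**Figure D4:**
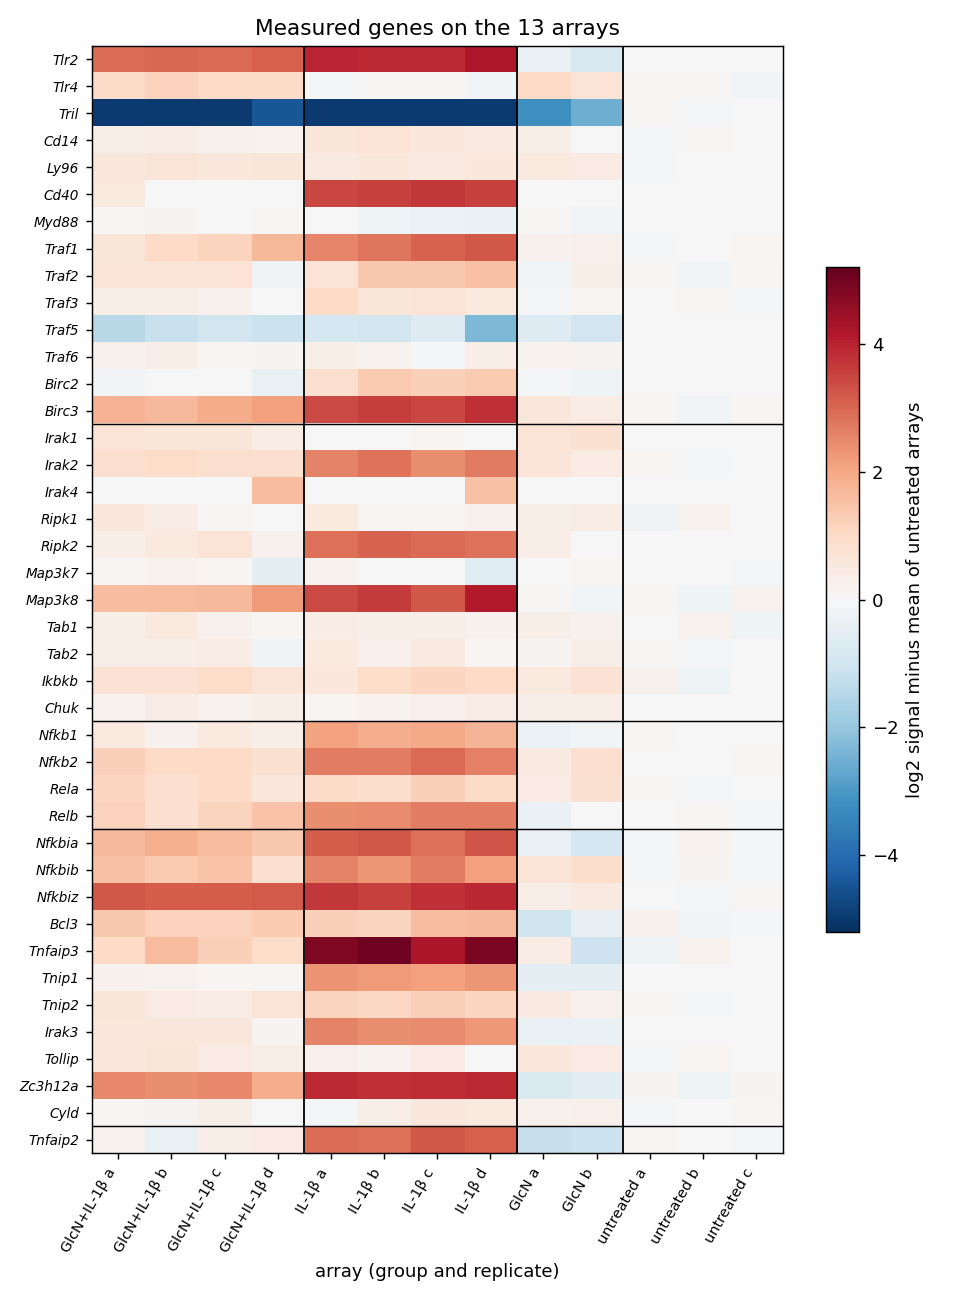
Log2 signal of the 41 measured genes on the 13 arrays, relative to the mean of the untreated arrays (colour scale), with genes in rows by role and arrays in columns by group and replicate. Red rows in the IL-1β columns are the 28 genes that rose; in the GlcN+IL-1β columns Tlr2, Nfkbiz and Zc3h12a keep the deepest red, and Tril is the darkest blue in all treated columns.

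Other genes of the same pathways came from a list of 65, of which 54 were measured and 53 tested. With IL-1β over untreated cultures 17 were higher (32.1%) and 6 lower (11.3%), beside 15.5% and 15.3% of all genes. Their median log2 change was 0.28. In the presence of glucosamine 1 was higher (Lbp, the lipopolysaccharide-binding protein) and 1 lower (Pdlim2, a ligase that targets the RelA protein). That is 1.89% on each side, near the 1.45% and 1.13% of all genes. The largest rises with IL-1β alone were in Tifa, a TRAF-interacting protein, at 3.91-fold (adjusted p = 5.1e-06), Tbkbp1 at 3.49-fold (adjusted p = 8.0e-06) and Peli1, a ubiquitin ligase for IRAK kinases, at 3.14-fold (adjusted p = 8.2e-07), and all 3 had a called negative interaction. Against IL-1β cultures, GlcN+IL-1β cultures were lower in Tifa (log2 -1.27) and Peli1 (log2 -1.46) but 1.56-fold higher in Tbkbp1 (adjusted p = 0.011), which glucosamine alone raised 4.24-fold (adjusted p = 2.9e-05). Pdlim2 (log2 -1.95), the adaptor Tirap (log2 -1.15) and the receptor accessory protein Il1rap (log2 -0.71) fell. Il1r1, which binds the cytokine that was added and is named for that reason, gave 23.2, 26.5, 29.5 and 39.6 in GlcN+IL-1β cultures, 169.5, 172, 153 and 174 in IL-1β cultures, 27.7 and 28.5 in GlcN cultures, and 58.8, 57.9 and 56.9 in untreated cultures. Every culture with glucosamine lay below every culture without it. IL-1β raised Il1r1 2.89-fold over untreated cultures (adjusted p = 1.9e-05) and its interaction was -1.48 on the log2 scale (adjusted p = 0.0021).

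Genes with several probe sets were represented by the brightest, and 11 of the 41 had 17 others, of which 16 could be tested. In 27 of their 80 comparisons a call made on the brightest probe set was not made on the other, and in none was a call made in the opposite direction. These included a second probe set of Nfkbiz near the floor, 1 of Traf1 (log2 -0.49 with IL-1β over untreated cultures, against 2.89 on the brightest) and those of Bcl3, Tnfaip2, Traf3 and Tollip. The 80 also count comparisons with no call on the brightest probe set, among them all those of Traf6 and Ripk1. The share of calls on the brightest probe set that was lost is therefore larger than 27 of 80.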

How the data were processed

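The 13 arrays analysed here hold RNA from 13 flasks. By the authors' methods, RNA samples were chosen by absorbance ratio. Some untreated and glucosamine-alone samples failed the array quality control and were left out by the authors. The authors scanned the arrays with MAS5 (named in the submitters' processing notes), computed 1 intensity per probe set with the Probe Profiler software and scaled each array globally, so a change in total RNA per flask cannot be seen. The deposited intensity values are linear, with array means of 127 to 145. From it, 57 control probe sets were left out, values under the 25th percentile (5.71) were raised to it, and 29263 of 31042 probe sets above it on some array were fitted on the log2 scale with limma 3.58.1 in R 4.3.3 (4 groups, eBayes with trend, 9 residual degrees of freedom, Benjamini-Hochberg over all probe sets). Probe sets were named from GEO's platform annotation (20826 with 1 gene, 436 with several, 9780 with none), and the brightest stood for its gene. The members and lists were chosen with earlier results of these data known. Values on every array are given, by rule, for at most 6 genes per role with the largest changes among those called. Those of Traf5, Bcl3, Tlr4, Irak1 and Il1r1 are given outside this rule. Promoter sequences came from RefSeq. Simulated data were used to test the fit. Between GlcN+IL-1β and IL-1β arrays, deviations from the group means correlated over genes at r = 0.38 to 0.53 for same letters and 0.33 to 0.56 for different letters among replicates a to c, at 0.80 between the replicate d arrays and at -0.67 to -0.47 between d and the rest, so only replicate d stood apart. In the other groups r was not over 0.1 for every same-letter pair. The letters were therefore not taken to pair the samples. Alternatives were other floors and filters, quantile or percentile scaling, no variance trend, the replicate block, second probe sets, the methods' ANOVA with Tukey test, and leaving out each array.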

Additional observations from a re-analysis of the deposited data

Results flagged for a closer look

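The responses to IL-1β with and without glucosamine differed in 22 of the 41 genes by the limma interaction test. On the log2 scale, the response with glucosamine minus that without it was 3.00 for Tril. For Cd40 it was -3.44, a size set by the floor (-3.57 to -2.27 over the alternatives), as is that of Tril. It was -3.22 for Tnfaip3, -2.63 for Ripk2, -2.39 for Nfkb2, -2.31 for Irak2, -2.18 for Birc3 and -2.02 for Traf1. Smaller differences were -1.90 for Nfkbib, -1.79 for Map3k8, -1.71 for Tnfaip2, -1.62 for Tnip1, -1.60 for Irak3, -1.32 for Nfkb1, -1.25 for Relb and -1.15 for Birc2. The smallest were -0.96 for Nfkbiz, -0.93 for Tnip2, -0.84 for Zc3h12a, -0.82 for Nfkbia, -0.73 for Rela and -0.38 for Ly96.

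Single arrays stood far from the others of their group in 8 of 82 sets of 4 arrays, and chance alone gives about 1 in 20. In GlcN+IL-1β cultures replicate d was the distant array for Traf2 (27.5), Map3k7 (197), Map3k8 (224), Tab2 (293), Irak3 (179) and Zc3h12a (277). In IL-1β cultures replicate c was distant for Irak1 (530.4) and Nfkb2 (410.0).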

How the results depend on the processing

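Of the counts of genes called, those for IL-1β against untreated, GlcN+IL-1β against IL-1β and the interaction stayed within 1.5 times their value in every setting run. GlcN+IL-1β against GlcN (13 genes) gave 8 with the methods' ANOVA and Tukey test and 8 when only the groups compared were fitted. GlcN against untreated (18 genes) gave 4 with ANOVA and Tukey, and 8 to 21 when 1 array was left out. Without both replicate d arrays the counts were 14 for GlcN+IL-1β against GlcN, 26 for GlcN+IL-1β against IL-1β, 22 for GlcN against untreated, 32 for IL-1β against untreated and 22 for the interaction. Calls gained there were those of Birc3 (adjusted p = 0.012), Irak3 (0.0021), Tnip2 (0.033) and Traf5 (0.011) in GlcN against untreated, Tab1 (0.032), Tab2 (0.0013) and Tollip (0.020) in IL-1β against untreated, Nfkbib (0.014) in GlcN+IL-1β against GlcN, Tollip (0.031) in GlcN+IL-1β against IL-1β and the interaction of Cd14 (0.039). Calls lost there were those of Chuk (0.060) in IL-1β against untreated, Traf2 (0.096) in GlcN+IL-1β against IL-1β and the interaction of Nfkbia (0.066). With the replicate letter as a block the counts were 13, 27, 19, 32 and 22 in the same order, and the pair of groups with IL-1β fitted alone with the block, chosen after seeing the data, gave 25; the block moved no count by over 1.5 times.

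On another probe set the direction turned for Nfkbiz in GlcN+IL-1β against IL-1β (log2 0.60) and in the interaction (0.60), for Traf1 with IL-1β over untreated (-0.49) for Traf3 in GlcN+IL-1β against IL-1β (0.085) and for Tnfaip2, on a probe set near the floor, in GlcN+IL-1β against IL-1β (0.058) and in the interaction (0.058); none was called there, and the cause was not tested. ANOVA with Tukey and the fit to the groups compared were not run for the interaction. Signals near the floor limit the sizes given for Cd40, Tril and Irak4.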
